A study of Mus musculus with 6 samples.

Results

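The genes described here encode the T-cell antigen receptor and its partners. They are the 10 rows of the deposited table named Trac, Trbc1, Trbc2, Cd3d, Cd3e, Cd3g, Cd247, Cd4, Cd8a and Cd8b1, of 54532 gene rows in all, and they were chosen by name. RNA was sequenced from mouse T cells after co-culture with ID8, a cell line of mouse ovarian cancer, to ask how tumour cells that have met cisplatin act on T cells. Spleens of C57BL/6 mice aged 6 to 8 weeks gave the T cells, which were isolated with a pan T-cell kit, were kept with IL-2 at 10 ng/mL and had been stimulated beforehand for 72 h by anti-CD3/CD28 beads. In 3 libraries the ID8 cells had been pretreated with 40 µM cisplatin (the cisplatin group), and in 3 they had been given PBS, a buffer (the control group). All 6 libraries thus came from activated T cells that met ID8 cells, and no library of T cells alone or of ID8 cells alone was analysed here. The length of the co-culture is not given in the sources used here, and the study describes the libraries of a group as independent samples and biological replicates without saying whether they came from separate mice or separate cultures. The p-values measure the spread between these libraries.

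The receptor for antigen on most T cells is a pair of variable chains, alpha and beta, which bind a peptide held by an MHC molecule. These chains have almost no part inside the cell. They travel to the surface only together with the CD3 chains gamma, delta and epsilon and the zeta chain, whose tails carry the tyrosine motifs that the kinase Lck phosphorylates and to which the kinase Zap70 then binds. CD4 and CD8 are coreceptors: CD4 binds MHC class II and CD8 binds MHC class I, and both bring Lck to the receptor. Mature T cells usually keep only CD4 or only CD8, so the transcripts of a mixed T-cell culture come from both kinds of cell.

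The values are FPKM, fragments per kilobase of gene, scaled for the size of the library. Dividing them by the step found in each library gave back whole reads, from 30606569 to 32169496 on genes per library, and the 10 genes rested on 2537 to 13352 reads each in any library. The groups were compared by limma on log2(FPKM + 0.1), over the 15874 genes that averaged at least 0.5 FPKM, and adjusted p-values (Benjamini-Hochberg) run over all of these. On this scale the change of a weakly expressed gene comes out too small. All 10 genes passed the filter on low values. No 2 libraries of a group held the same values, and their reads differed by more than sampling noise (chi-square per degree of freedom 5.36 to 6.44).

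All 10 genes were higher in the cisplatin group on the FPKM as deposited, with log2 fold changes from 0.19 for Cd3g to 0.85 for Trac. When the libraries were centred on 15 other T-cell genes, 5 of the 10 were lower, 2 were higher and 3 did not pass the test. On that centred scale 69.2% of all tested genes passed as lower and 4.04% as higher, so a fall there was not particular to these genes. By limma, 10 of 10 passed an adjusted p-value of 0.05 on the FPKM as deposited, where 27.5% of all tested genes passed as higher and 29.0% as lower (56.5% in all). None of the 10 passed with a fold change of at least 2, a limit that 4.11% of all tested genes passed as higher and 12.8% as lower (16.9% in all), and the count was also 0 by limma's voom on the rebuilt reads, although all 10 had an unadjusted p-value under 0.05. For each gene, every cisplatin library lay above every control library, as it did for 31.9% of all tested genes. A further 32.3% were separated the other way, so that the groups did not overlap for 64.2% of tested genes. The median log2 fold change of the 10 genes was 0.51, against 0.03 over all tested genes. The mean log2(FPKM + 0.1) of the 10 genes was 6.87 ± 0.028 in the cisplatin and 6.33 ± 0.061 in the control libraries (SD, n = 3 each). In bulk RNA, fewer cells of a type and less RNA per cell cannot be told apart.

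**Figure D1:**
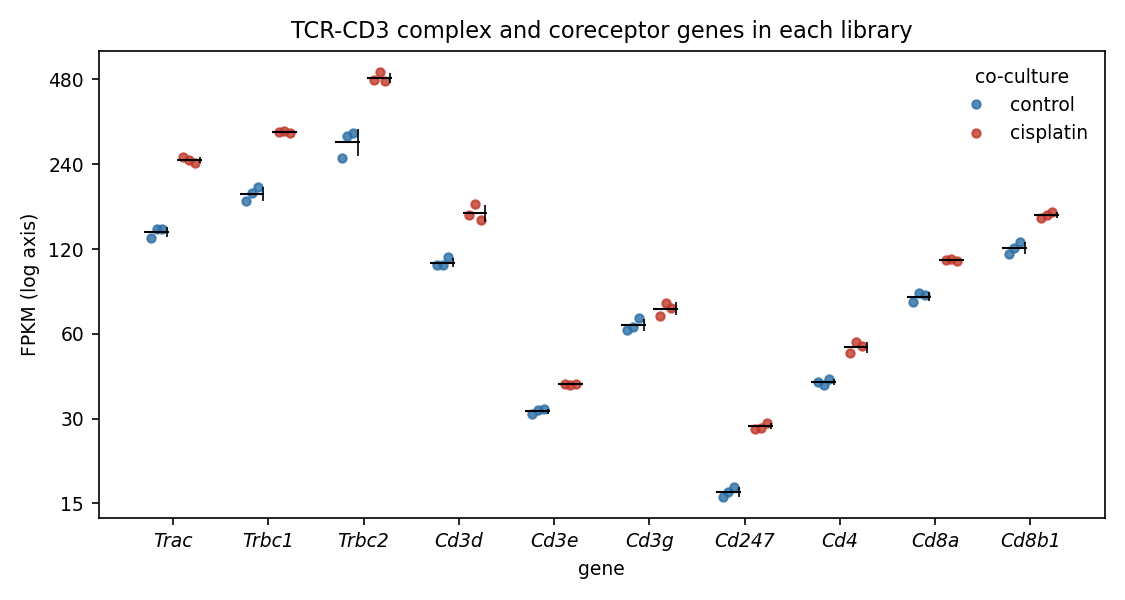
FPKM (log axis) of the 10 genes in each library, control in blue and cisplatin in red, with black bars at the mean and 1 SD over 3 libraries. On these deposited values the 3 cisplatin libraries lie above the 3 control libraries for each gene, with the narrowest gap, 1.36 FPKM, for Cd3g. After centring on 15 other T-cell genes, Cd3e, Cd3g, Cd4, Cd8a and Cd8b1 are lower instead and Cd3d, Trbc1 and Trbc2 do not pass the test. On that scale 69.2% of all tested genes pass as lower and 4.04% as higher.

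The constant regions of the receptor chains had the highest FPKM by the authors' gene length (by coding-transcript length Cd3g ranked above Trbc1 and Trac in control) and were 3 of the 4 largest log2 fold changes among the 10. Trac (ENSMUSG00000076928, chromosome 14 from 54220521 to 54224206 of GRCm38, 4 exons) is the constant region that all alpha chains share, whichever variable segment they use. It had 255, 248 and 243 FPKM in the cisplatin libraries and 132, 141 and 142 FPKM in the control libraries. The lowest cisplatin library stood 101 FPKM above the highest control library. Its log2 fold change was 0.85 ± 0.04 (SE, limma adjusted p = 5.01e-06), the largest of the 10, and it stayed positive after the centring, at 0.22 (limma adjusted p = 0.00159).

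The beta chain has a pair of constant regions, Trbc1 (ENSMUSG00000076490, chromosome 6 from 41538218 to 41539881) and Trbc2 (ENSMUSG00000076498, chromosome 6 from 41546730 to 41548352), and each beta chain uses one of them. The coding parts of these genes, 518 bases each, were identical at 95.6% of positions in GENCODE M21, and exon 1, 375 bases long, differed at 1 position with an identical run of 259 bases. The stretches printed here, on the plus strand of GRCm38 and with differing bases in capitals, show the differences in exon 1 and exon 3. The bases after the coding part, 219 in the Trbc1 and 174 in the Trbc2 transcript, were not compared. The stretch around the exon 1 difference is chr6:41538447-41538507 in Trbc1 and chr6:41546959-41547019 in Trbc2.
Trbc1 exon 1: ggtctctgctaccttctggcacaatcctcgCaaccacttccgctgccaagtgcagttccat
Trbc2 exon 1: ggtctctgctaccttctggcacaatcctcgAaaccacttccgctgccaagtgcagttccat
Exon 3 is 107 bases long and holds 15 of the 23 coding differences, at chr6:41539229-41539335 in Trbc1 and chr6:41547772-41547878 in Trbc2.
Trbc1 exon 3: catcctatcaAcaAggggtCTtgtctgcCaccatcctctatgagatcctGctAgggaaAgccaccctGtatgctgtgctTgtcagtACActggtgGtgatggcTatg
Trbc2 exon 3: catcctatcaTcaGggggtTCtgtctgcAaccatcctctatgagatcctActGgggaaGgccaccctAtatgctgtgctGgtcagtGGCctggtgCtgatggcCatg
How reads that match both genes were counted is not given in the sources used here, so the split between Trbc1 and Trbc2 is uncertain. If such reads were left out, the sum of both genes is too low as well.

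Trbc1 had 313, 316 and 309.9 FPKM with cisplatin and 178, 189.9 and 199 FPKM in control, a log2 fold change of 0.73 ± 0.04 (SE, limma adjusted p = 1.55e-05). Trbc2 had 479, 510.3 and 472 FPKM with cisplatin and 253, 302 and 309.5 FPKM in control, a log2 fold change of 0.76 ± 0.08 (SE, limma adjusted p = 0.000249). Groups did not overlap for either gene, and control replicate 1 was the low library in both. After the centring their log2 fold changes were 0.10 and 0.13, and neither passed the test (limma adjusted p = 0.0537 and 0.149). The ratio of Trbc1 to Trbc2 was 0.643 ± 0.021 with cisplatin and 0.658 ± 0.040 in control (SD, n = 3 each). That difference was smaller than the spread between libraries (log2 difference -0.03, 95% interval -0.19 to 0.13, p = 0.8 by a two-sided exact permutation test, 0.8 after adjustment over 9 ratios). Both beta genes together stood at 3.22 ± 0.11 times the FPKM of Trac with cisplatin and 3.44 ± 0.16 times in control (SD, n = 3 each), and the groups overlapped (p = 0.2 by the same exact test, a ratio added after the data were seen).

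The CD3 genes lie side by side on chromosome 9, and they differed in how much higher they were with cisplatin. Cd3g (ENSMUSG00000002033, 44969572 to 44980431, minus strand) and Cd3d (ENSMUSG00000032094, 44981786 to 44987339, plus strand) point away from each other with 1355 bases between their starts. Cd3e (ENSMUSG00000032093, 44998740 to 45009627, minus strand) follows 11400 bases beyond Cd3d. Cd247, the gene of the zeta chain, lies apart, on chromosome 1 from 165788681 to 165877277 (ENSMUSG00000005763, plus strand). The 250 bases before the starts of Cd3g, Cd3d and Cd247 are printed because the first of these genes had the smallest difference of the 10 and the others had larger ones. They come from RefSeq's GRCm38.p6 annotation, each on the strand of its gene.
Cd3g, chr9:44980432-44980681, minus strand: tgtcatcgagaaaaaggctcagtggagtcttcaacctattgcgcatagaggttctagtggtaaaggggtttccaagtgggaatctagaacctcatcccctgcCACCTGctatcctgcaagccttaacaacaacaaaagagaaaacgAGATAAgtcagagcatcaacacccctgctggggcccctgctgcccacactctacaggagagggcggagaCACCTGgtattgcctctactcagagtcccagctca
Cd3d, chr9:44981536-44981785, plus strand: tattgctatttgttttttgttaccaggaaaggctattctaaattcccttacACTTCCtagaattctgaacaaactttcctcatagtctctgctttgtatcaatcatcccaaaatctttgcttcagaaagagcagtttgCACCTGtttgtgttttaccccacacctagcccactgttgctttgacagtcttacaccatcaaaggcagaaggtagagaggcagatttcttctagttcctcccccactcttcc
Cd247, chr1:165788431-165788680, plus strand: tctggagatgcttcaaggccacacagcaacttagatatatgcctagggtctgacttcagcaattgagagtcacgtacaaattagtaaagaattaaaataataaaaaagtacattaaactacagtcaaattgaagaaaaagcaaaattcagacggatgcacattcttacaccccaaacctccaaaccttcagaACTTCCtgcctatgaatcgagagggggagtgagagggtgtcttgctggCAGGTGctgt
Capitals mark matches on either strand to the ETS core GGAAGT, the E-box CANCTG and the GATA site AGATAA, and no match overlapped another here. The RefSeq table held 5 of the 10 genes (Cd3d, Cd3e, Cd3g, Cd247 and Cd8a). The ETS letters were in 3 of the 5 windows (Cd3d, Cd3e and Cd247) and in 19.7% of 32851 promoters of that length, and the E-box letters in 3 of 5 (Cd3d, Cd3g and Cd247) and in 44.8%. The GATA letters were in 1 of 5 (Cd3g) and in 9.99% of promoters, and the RUNX letters TGTGGT in 0 of 5 and in 14.0%. These matches describe letters, not bound factors.

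Cd3g encodes the gamma chain, which pairs with epsilon. It had 69.7, 77.4 and 74.0 FPKM with cisplatin and 62.0, 63.3 and 68.3 FPKM in control. The groups did not overlap, but the lowest cisplatin library stood only 1.36 FPKM above the highest control library. The log2 fold change was 0.19 ± 0.05 (SE, limma adjusted p = 0.0207), and after the centring -0.44 (limma adjusted p = 0.000192). The call on the deposited FPKM rested on single libraries: without cisplatin replicate 2, cisplatin replicate 3, control replicate 1 or control replicate 2 the adjusted p-values from limma were 0.0641, 0.0595, 0.0640 and 0.0647.

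Cd3d encodes the delta chain, the other partner of epsilon. It had 158, 174 and 152 FPKM with cisplatin and 105, 105 and 112 FPKM in control. Cisplatin replicate 2 was the high library, and the groups stood 39.9 FPKM apart. The log2 fold change was 0.59 ± 0.06 (SE, limma adjusted p = 0.00015), and after the centring -0.04 (limma adjusted p = 0.538).

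Cd3e encodes the epsilon chain, which both CD3 pairs contain. It had 39.7, 39.5 and 39.8 FPKM with cisplatin and 31.1, 32.2 and 32.4 FPKM in control. Its cisplatin group was the tightest of the 10 (coefficient of variation 0.359%), tighter than the counting error of its lowest library, control replicate 1 (1.62%). The log2 fold change was 0.32 ± 0.03 (SE, limma adjusted p = 0.000138), and after the centring -0.31 (limma adjusted p = 5.61e-05).

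Cd247 was the lowest of the 10 genes in FPKM and had the second largest log2 fold change. It had 27.7, 27.9 and 28.9 FPKM with cisplatin and 15.9, 16.5 and 17.1 FPKM in control, with no overlap. The log2 fold change was 0.77 ± 0.04 (SE, limma adjusted p = 8.76e-06), and 0.14 after the centring (limma adjusted p = 0.00991). The zeta chain is also used by natural killer (NK) cells. Of 8 NK-cell markers, 7 were tested and 6 rose by limma on the deposited FPKM (3 rose and 2 fell after the centring), and their summed level was 97.4 to 103 FPKM in control and 150.1 to 152 FPKM with cisplatin. Klrd1, which activated T cells also express, made up most of that sum (92.6 ± 1.2 FPKM with cisplatin, SD, n = 3), while Ncr1, an NK receptor, had 1.15 ± 0.35 FPKM with cisplatin and 0.817 ± 0.16 FPKM in control (SD, n = 3 each) and did not pass the test. Of the other tested NK-cell markers, Eomes, Tyrobp, Fcer1g and Klrk1 had log2 fold changes of 1.05, 0.97, 0.88 and 0.85 on the deposited FPKM. Klrd1 and Cd160 had smaller ones, 0.46 and 0.29. The part of NK cells in the Cd247 difference was not tested. Cd247 overlaps Pou2f1 on the other strand, with 2116 rebuilt reads on average in control and 2373 with cisplatin, and Cd3e overlaps the antisense transcript Gm48719 with 104 and 127 reads. Whether the counting used strand is not given in the sources used here, so reads of such pairs cannot be told apart.

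The coreceptors rose by about the same amount as each other on the deposited FPKM. All 3 fell after the centring, where 69.2% of all tested genes passed as lower. Cd4 (ENSMUSG00000023274, chromosome 6 from 124864692 to 124888221) had 51.2, 56.1 and 54.2 FPKM with cisplatin and 40.6, 39.6 and 41.3 FPKM in control. Its log2 fold change was 0.41 ± 0.04 (SE, limma adjusted p = 0.000194), and -0.22 after the centring (limma adjusted p = 0.00283). The groups stood 9.88 FPKM apart.

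Cd8a (ENSMUSG00000053977, chromosome 6 from 71373427 to 71379173) encodes the CD8 alpha chain, which can also pair with itself. It had 109, 111 and 109 FPKM with cisplatin and 77.9, 83.6 and 82.2 FPKM in control, a log2 fold change of 0.43 ± 0.03 (SE, limma adjusted p = 5.63e-05) and of -0.19 after the centring (limma adjusted p = 0.00107). Cd8b1 (ENSMUSG00000053044, chromosome 6 from 71322788 to 71337494) encodes the beta chain, which is found only with alpha and marks conventional CD8 T cells. It had 155, 159 and 163 FPKM with cisplatin and 115, 121 and 127 FPKM in control, a log2 fold change of 0.39 ± 0.04 (SE, limma adjusted p = 0.000245) and of -0.24 after the centring (limma adjusted p = 0.000677). Neither gene's groups overlapped. Some dendritic cells also carry Cd8a: of 8 dendritic-cell markers 4 were tested, 3 rose and 1 fell by limma on the deposited FPKM (1 and 1 after the centring), and their summed level was 10.6 to 11.3 FPKM in control and 14.3 to 16.8 FPKM with cisplatin. Among them Xcr1 and Clec9a, which mark the dendritic cells that carry Cd8a, were under the filter, at 0.168 and 0.296 FPKM with cisplatin, and Cd209a was listed at 0 in all 6 libraries. Batf3, the highest of the list, rose from 4.28 ± 0.13 to 8.36 ± 1.2 FPKM (SD, n = 3 each). Its log2 fold change was 0.94 (limma adjusted p = 0.000332), and 0.31 after the centring (limma adjusted p = 0.0384). Itgax, Flt3 and Zbtb46 had log2 fold changes of 0.52, 0.50 and -1.04 on the deposited FPKM. The part of dendritic cells in the Cd8a difference was not tested.

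Ratios between the genes within each library do not depend on how libraries are scaled, and they separated the genes. The 9 ratios fixed in the design were tested by a two-sided exact permutation test, which with 3 libraries against 3 cannot go below p = 0.1 (0.18 after Benjamini-Hochberg adjustment over the 9). The groups did not overlap in 5 of the 9 ratios. All 5 have Cd3e as the denominator, so they are not independent of each other. How often the ratios of other gene pairs separate the groups was not tested. Trac stood at 6.26 ± 0.15 times the FPKM of Cd3e with cisplatin and 4.33 ± 0.090 times in control (SD, n = 3 each), a log2 difference of 0.53 (95% interval 0.46 to 0.61, exact p = 0.1). Cd247 stood at 0.711 ± 0.016 times Cd3e with cisplatin and 0.519 ± 0.0096 times in control (SD, n = 3 each), a log2 difference of 0.45 (95% interval 0.39 to 0.52, exact p = 0.1). Per unit of Cd3e RNA, the RNA of both Trac and Cd247 was thus higher in each of the 3 cisplatin libraries than in any control library. These are ratios of RNA, not of protein chains. Against the RNA of the gamma chain, a ratio added after the data were seen, Cd247 stood at 0.384 ± 0.020 times Cd3g with cisplatin and 0.257 ± 0.0052 times in control (SD, n = 3 each, log2 difference 0.58, 95% interval 0.45 to 0.71, exact p = 0.1). Cd3d per Cd3e was also higher (log2 difference 0.27, 95% interval 0.09 to 0.45, exact p = 0.1), and Cd8a per Cd3e by a small amount (log2 difference 0.12, 95% interval 0.07 to 0.17, exact p = 0.1). Cd3g per Cd3e was lower in all 3 cisplatin libraries (log2 difference -0.12, exact p = 0.1), although its 95% interval, -0.28 to 0.03, reached past 0.

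The balance of the coreceptors showed no difference that these libraries could resolve. Cd8a stood at 2.13, 1.97 and 2.01 times Cd4 with cisplatin and at 1.92, 2.11 and 1.98 times in control. The values of the groups were interleaved, with a log2 difference of 0.03 (95% interval -0.12 to 0.17, exact p = 0.6, adjusted 0.675). Cd8b1 per Cd8a had a log2 difference of -0.04 (95% interval -0.13 to 0.05, exact p = 0.3, adjusted 0.386), and Cd4 per Cd3e of 0.09 (95% interval -0.04 to 0.22, exact p = 0.2, adjusted 0.3). With 3 libraries a group the exact test cannot go below p = 0.1, whatever the size of a change in these ratios. The intervals show the spread of each estimate, not a limit of detection.

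**Figure D2:**
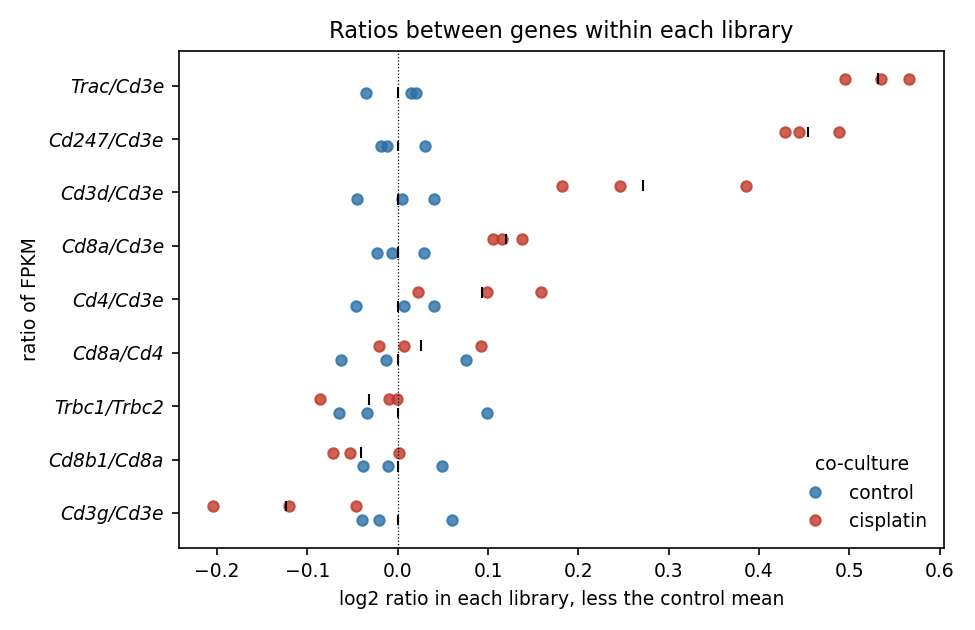
Log2 ratio of the FPKM of a pair of genes in each library, less the control mean of that ratio, for the 9 ratios, with control libraries in blue, cisplatin libraries in red and a black bar at each group's mean. Trac/Cd3e and Cd247/Cd3e are separated by 0.53 and 0.45, while for Cd8a/Cd4 the libraries of the groups are interleaved.

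The order of the levels depended on the gene length used. By the authors' gene length the control order was Trbc2, Trbc1, Trac, Cd8b1, Cd3d, Cd8a, Cd3g, Cd4, Cd3e and Cd247, and no neighbours in it overlapped. With cisplatin only Cd3d and Cd8b1 traded places, and these overlapped (161 ± 11 and 159 ± 3.7 FPKM, SD, n = 3 each). Cd3d was below Cd8b1 in all 3 control libraries and above it in 2 of the 3 cisplatin libraries. The authors' length takes in all exons of a gene, among them those of transcripts with retained introns, and was 3.20 times the longest coding transcript of GENCODE M21 for Cd3g, 2.79 times for Cd3e and 1.80 times for Cd247. With the length of that coding transcript, an alternative added after the data were seen, Cd3g had 206 ± 11 FPKM in control and 236 ± 12 FPKM with cisplatin and ranked 2 in control and 4 with cisplatin (SD, n = 3 each). Its control range then overlapped that of Trbc1, and its cisplatin range that of Trac. Cd3e had 88.9 ± 2.0 and 111 ± 0.40 FPKM on that scale (SD, n = 3 each) and stood above Cd4. All reads counted for a gene were divided there by the length of the coding transcript alone. Reads from exons outside that transcript were not removed, so the levels of Cd3g and Cd3e can be too high on that scale. Trbc2 remained the highest and Cd247 the lowest by both lengths. Fold changes do not depend on the length, whereas gaps given in FPKM scale with it.

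In the control group most of the 10 genes ranked the replicates alike. Control replicate 1 was the lowest control library for 9 of them and control replicate 3 the highest for 9. The summed FPKM of the coreceptor lineage regulators, of the assembly and gamma-delta genes and of the myeloid markers had that order too. The sums of the proximal signalling genes, the other T-cell genes and the B-cell, NK-cell, dendritic-cell and ID8 markers did not. How often single genes had it was not counted. Without control replicate 1 the log2 fold change of Trbc2, which had the widest control group (coefficient of variation 10.7%), was 0.67, the lowest value over the libraries left out. The largest coefficient of variation in the cisplatin group was that of Cd3d, 6.93%. Counting error was at most 1.99%, for the gene and library with the fewest reads, which is small beside these largest values. It was not small beside the tightest cisplatin groups. Cd3e (0.359%), Cd8a (0.798%) and Trbc1 (0.958%) varied there by less than the counting error of their lowest library of all 6 (1.62%, 1.08% and 1.58%). That library was control replicate 1 for each of these genes. The cisplatin libraries held more reads of them, so the counting error there was smaller than these values.

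The scaling decided the sign of the log2 fold change for 6 of the genes, among them Cd3d, which did not pass the test after the centring. The authors' FPKM already carried a median-of-ratios scaling, since the factor was 1.01 in all 6 libraries. On that scale the tested markers of ID8 cells fell and most markers of immune cells rose, so the libraries were also centred on 15 other T-cell genes (such as Thy1, Cd2 and Lck, with none of the 10 among them), a scaling that assumes those genes did not change on average. It moved the median log2 fold change of all tested genes from 0.03 to -0.60. Relative to the median of all tested genes, the 10 genes stood at a median of 0.48, with 0.82 for Trac and 0.16 for Cd3g. These distances are the same under both scalings by construction, since the centring shifts all genes alike. After the centring Trac and Cd247 passed limma's test as higher and Cd3e, Cd3g, Cd4, Cd8a and Cd8b1 as lower (adjusted p under 0.05), and Cd3d, Trbc1 and Trbc2 did not pass. Of all tested genes, 4.04% passed as higher and 69.2% as lower on that scale.

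**Figure D3:**
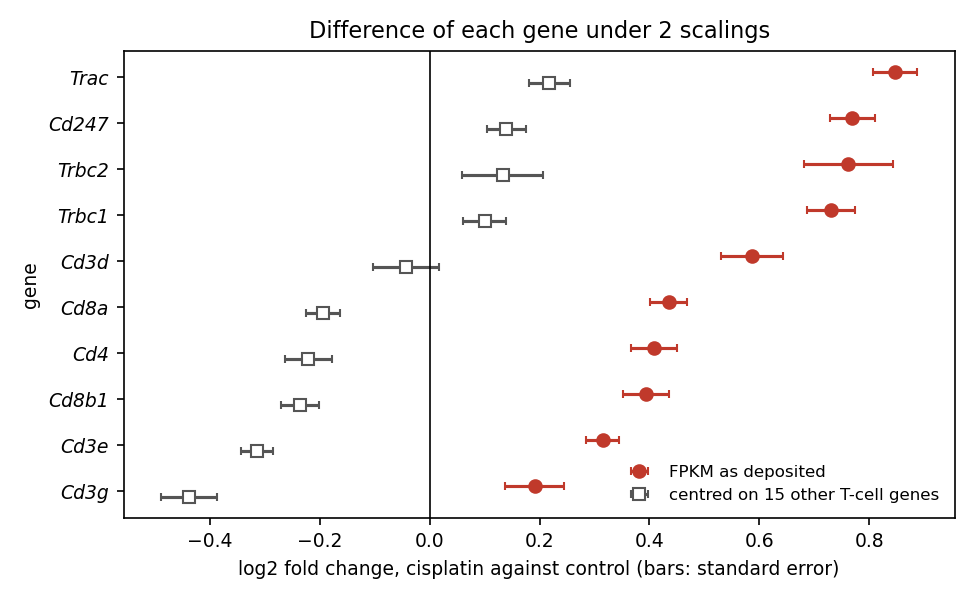
Log2 fold change (cisplatin against control) of the 10 genes on the FPKM as deposited (filled circles) and after centring on 15 other T-cell genes (open squares), with bars of 1 standard error from limma. The order of the genes, from Trac (0.85 and 0.22) to Cd3g (0.19 and -0.44), is the same under both scalings by construction, since the centring shifts all genes alike. After the centring 6 genes lie below 0, Cd3d within its standard error of 0.

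Transcripts of other cell types moved with the groups. Of 18 ID8 tumour-cell markers 16 were tested and all 16 fell by limma on the deposited FPKM, 15 of them by at least 2-fold, and their summed level was 1716 to 1801 FPKM in control and 262 to 269 FPKM with cisplatin. Krt19, a keratin, was the highest, at 646 ± 18 FPKM in control and 52.9 ± 1.5 FPKM with cisplatin (SD, n = 3 each). Of 10 B-cell markers 8 rose and 1 fell by limma (4 and 3 after the centring), with a summed level of 1667 to 1750.4 FPKM in control and 3592 to 3670 FPKM with cisplatin, most of it Ighm. Of 11 myeloid markers 9 were tested, 7 rose and 1 fell (5 and 2 after the centring), with a summed level of 65.5 to 70.3 FPKM in control and 128 to 147 FPKM with cisplatin, and Lyz2 was the highest of them. The 10 receptor and coreceptor genes summed to 1010 to 1130.1 FPKM in control and 1646 to 1719 FPKM with cisplatin, so the defining genes of T cells were present. In control their sum was below those of the ID8 and the B-cell markers, and with cisplatin it was below that of the B-cell markers. The lists differ in size and single genes weigh heavily in them, so these sums do not rank cell types. The level of Ighm alone, 1433 ± 38 FPKM in control and 3220.5 ± 47 FPKM with cisplatin (SD, n = 3 each), was above that of any of the 10 genes, so the libraries were not of T cells alone. The part of this change in mixture in the difference of the 10 genes was not tested.

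The enzymes and adaptors that act just after the receptor spanned log2 fold changes from -0.60 to 1.09. Of 37 proximal signalling genes, all tested, 31 rose and 2 fell by limma on the deposited FPKM, with a median log2 fold change of 0.53, and 6 rose and 19 fell after the centring. The kinases Lck and Zap70 belong to this list, which shares 11 genes with the 15 used for the centring. The largest rises were those of Trat1, an adaptor that binds the receptor complex (log2 fold change 1.09, limma adjusted p = 0.0013), Ptpn6, a phosphatase that dampens receptor signals and is abundant in B and myeloid cells too (log2 fold change 1.04, limma adjusted p = 7.3e-07), and Sla2, an adaptor that limits receptor signals (log2 fold change 0.995, limma adjusted p = 1.7e-06). The genes that fell were Themis, a regulator of receptor signalling in developing T cells, from 18.5 ± 0.73 to 12.2 ± 0.49 FPKM (SD, n = 3 each, log2 fold change -0.60, limma adjusted p = 6.5e-05), and Nck2, an adaptor (log2 fold change -0.42, limma adjusted p = 0.00079).

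Of 12 regulators of the CD4 and CD8 lineages, all tested, 9 rose and 2 fell by limma on the deposited FPKM, with a median log2 fold change of 0.63, and 3 rose and 5 fell after the centring. The largest rises were those of Tox (log2 fold change 0.79), Ikzf1 (0.76 on the same scale) and Patz1 (0.74), the last a factor that binds the Cd8 locus. Zbtb7b, the factor that commits cells to the CD4 lineage, fell from 18.6 ± 1.4 to 14.9 ± 0.14 FPKM (SD, n = 3 each, log2 fold change -0.31, limma adjusted p = 0.0034), and Runx1, which helps silence Cd4 in immature cells, from 6.67 ± 0.34 to 4.32 ± 0.30 FPKM (SD, n = 3 each, log2 fold change -0.62, limma adjusted p = 0.00045). Runx3, the factor of the CD8 lineage, rose on the deposited FPKM (log2 fold change 0.23, limma adjusted p = 0.0026) and had a log2 fold change of -0.40 after the centring.

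Of 9 genes of receptor assembly and of the gamma-delta receptor, the other form of the T-cell receptor, 5 were tested, 4 rose and 1 fell by limma under both scalings. The 4 tested constant regions of that receptor had larger log2 fold changes than any of the 10 genes. Trdc, the delta constant region, had 6.80 ± 0.70 FPKM with cisplatin and 2.57 ± 0.25 FPKM in control (SD, n = 3 each). Its log2 fold change was 1.37 (limma adjusted p = 5.5e-05). Tcrg-C1 and Tcrg-C2, gamma constant regions, had log2 fold changes of 1.75 and 1.45 (limma adjusted p = 0.00028 and 0.0015), and as near copies of each other their reads may be shared. Their levels of 13.1 FPKM and under with cisplatin were far below the 249 ± 5.7 FPKM of Trac. Dntt, the enzyme that adds bases when receptor genes are joined, fell from 1.62 ± 0.12 to 0.373 ± 0.23 FPKM (SD, n = 3 each). Rag1, Rag2, Ptcra and Tcrg-C3 were under the filter, each with at most 6 rebuilt reads on average in either group.

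**Figure D4:**
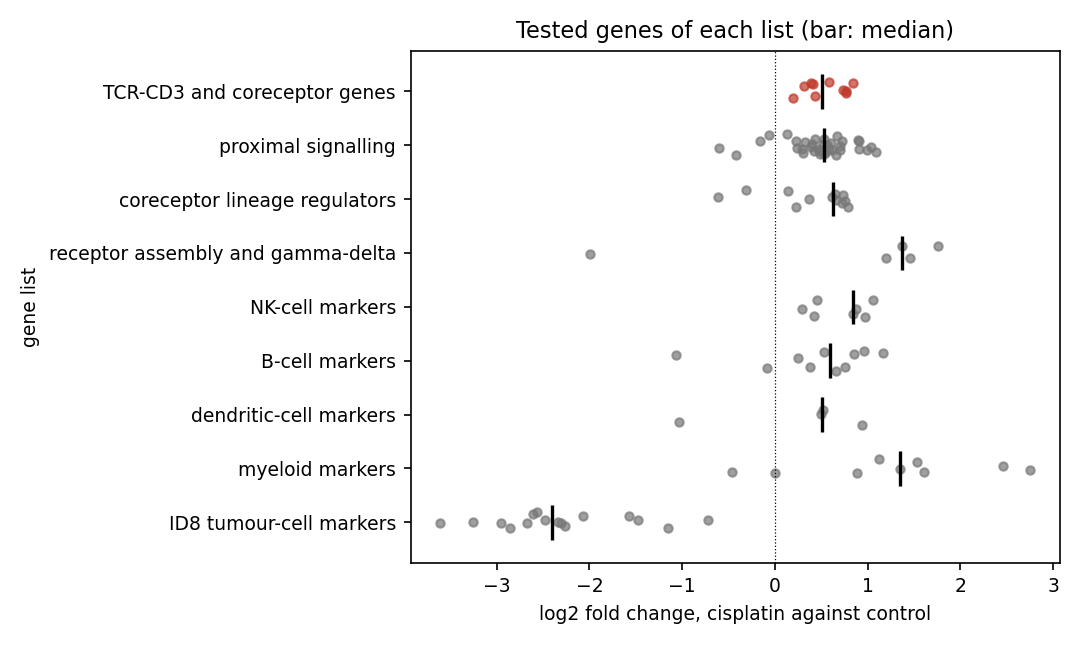
Log2 fold change (cisplatin against control, on the FPKM as deposited) of each tested gene of the lists, with a black bar at the list's median. The 10 receptor and coreceptor genes (red, median 0.51) lie between 0.19 and 0.85, near the proximal signalling genes (median 0.53) and apart from the ID8 markers (median -2.41); the centring on 15 other T-cell genes moves all points to the left alike, which puts 6 of the 10 below 0, with Cd3d not past the test there.

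Genes whose pattern over the 6 libraries was nearest to the mean of the 10 were sought among 8412 other genes averaging 5 FPKM or more, by the Euclidean distance of log2(FPKM + 0.1) less each gene's own mean. Among the 5 nearest were Slc25a5, a carrier of ADP and ATP in mitochondria (distance 0.032, log2 fold change 0.54), Tbc1d10a (distance 0.041, log2 fold change 0.54), Rps3a1, a ribosomal protein (distance 0.050, log2 fold change 0.51), and Gbp8 (distance 0.053, log2 fold change 0.56). The 10 genes themselves lay farther from their own mean, from 0.13 for Cd3d to 0.44 for Cd3g. With 6 libraries in 2 groups, this measure depends mainly on the size of the difference between the groups.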

How the data were processed

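The 6 libraries were made from poly-T selected RNA of co-cultured T cells. The study's methods name LifeScope for alignment and counting after adaptor and quality trimming, while the submitters' processing notes name fastp, HISAT2 2.0.5, featureCounts 1.5.0-p3 and mm10. The authors deposited FPKM (fragments per kilobase, scaled for library size) for 54532 genes, one column per library, with 0 columns of other samples. The table's gene coordinates equalled those of GENCODE M21 (GRCm38) for 53499 of 54409 shared genes. The authors tested raw counts with DESeq2. Here whole reads were rebuilt from FPKM times gene length (100% of values above 0 within 0.1 of a whole read), which give 30606569 to 32169496 reads per library and cover counting error only.

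Groups and replicate numbers came from the sample titles. limma 3.58.1 (R 4.3.3; lmFit, eBayes with trend) was run on log2(FPKM + 0.1) for the 15874 genes averaging 0.5 FPKM or more. Ratios were compared by exact permutation, with 95% intervals from the pooled SD. Python 3.11.15, numpy 2.4.6, pandas 2.3.3, scipy 1.17.1 and matplotlib 3.10.9 were used. The fit was tested on simulated data. The genes, lists and tests were chosen with earlier results of these data known. All 10 members were to be named, with the 3 largest rises and falls past an adjusted p-value of 0.05 in each pathway list, the highest gene of a marker list and the 5 genes nearest in pattern, of which 4 are reported here. Other genes were named after their values were seen: Lck, Zap70, Thy1, Cd2 and Runx3 as examples, and Klrd1, Ncr1, Xcr1, Clec9a, Cd209a, Rag1, Rag2, Ptcra and Tcrg-C3 for their levels. Eomes, Tyrobp, Fcer1g, Klrk1, Cd160, Batf3, Itgax, Flt3 and Zbtb46 were likewise added then, as the remaining tested markers of their lists. Alternatives were other pseudocounts (1 and 0.01), filters (none and 5 FPKM), scalings (TPM, median of ratios, quantile, centring on 15 T-cell genes), no variance trend, voom on rebuilt reads (at least 10 in 3 libraries), each replicate left out, and the replicate block.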

Additional observations from a re-analysis of the deposited data

How the results depend on the processing

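Over the 17 alternatives, 9 or 10 of the 10 genes stayed higher in limma's test (adjusted p under 0.05), except that centring on the other T-cell genes left 7, of which 2 were higher and 5 lower. That alternative reversed the log2 fold changes of Cd3d (-0.043), Cd3e (-0.31), Cd3g (-0.44), Cd4 (-0.22), Cd8a (-0.19) and Cd8b1 (-0.24), by its own construction, since it shifts all genes alike. The gene lost where 9 remained was Cd3g, also without the variance trend (limma adjusted p = 0.0532). Over all genes, 2687 were called with a 2-fold change, 1762 with a pseudocount of 1, 1145 among genes averaging 5 FPKM or more and 4190 after the centring, where 97.0% were lower against 75.7% before; quantile normalization gave 64.6% lower. Leaving out 1 library gave 2600 to 2692. The log2 difference of the Cd8a to Cd4 ratio ran from -0.0068 to 0.064 and that of Trbc1 to Trbc2 from -0.065 to 0.017 over the libraries left out. For Cd8a to Cd4 the sign turned without cisplatin replicate 1 or control replicate 1 (-0.0053), and for Trbc1 to Trbc2 without control replicate 1, all within the intervals given. The other 7 ratios kept their direction in all alternatives run. The labels number the replicates 1 to 3 in both groups without saying that equal numbers share a mouse. Deviations from the group means of same-numbered libraries correlated at 0.023, -0.063 and -0.021. Such values cannot show whether equal numbers share a source, so pairing remains unknown. With the replicate block 10 of the 10 genes passed and 2662 genes were called, and the exact p of 3 pairs cannot go below 0.25 for a ratio.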
